A study of Mus musculus with 6 samples.

Results

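The genes described here are the fibroblast growth factor (FGF) genes of the mouse: the ligands Fgf1 to Fgf18 and Fgf20 to Fgf23 as listed by symbol, the receptors Fgfr1 to Fgfr4 and Fgfrl1, the klothos Kl and Klb, and 9 genes of the negative feedback and transcriptional output of the pathway. They were taken by symbol from a fixed list of 38 genes, and all 38 matched 1 identifier each of the 55471 in the table. RNA sequencing of polyadenylated RNA from endosteal mesenchymal stromal cells, the stromal cells at the inner surface of bone, gave 6 libraries from C57BL/6J mice. In 3 libraries, labelled Bap1 cKO, the mice carried Prx1-cre together with Bap1fl/fl. The other 3 libraries, labelled Bap1 WT, came from Bap1fl/fl mice, so both groups share the floxed allele and the labels name Cre in the cKO group alone. Prx1 drives Cre in the early limb mesenchyme and its descendants, so the model is not limited to 1 stromal cell type. Bap1 encodes a deubiquitinase that acts on histone H2A, and the series title gives the question as how Bap1 shapes the stromal niche of lymphocyte formation. Neither an age nor a link from library to animal is given, so the p-values cover the spread among these 6 samples, which may be technical. The groups are called cKO and WT libraries below, after their labels.

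Secreted FGFs bind receptor tyrosine kinases together with heparan sulphate on the cell surface. The receptor passes the signal through the adaptor Frs2 to Ras and the kinase ERK, and ERK in turn induces its own inhibitors, among them the Sprouty and Spred proteins and the phosphatase Dusp6, and the ETS factors Etv4 and Etv5. In bone, FGF signals act on growth plate cartilage and osteoblasts, and the hormone Fgf23 links bone to phosphate and vitamin D handling in the kidney through the co-receptor Kl.

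The values are RPKM, reads scaled to gene length and to the mapped reads of the library, so levels can be compared between genes per length. The depth of the libraries, estimated from the steps between low values, was 13.2 to 22.2 M fragments. A count of 3 fragments per kilobase, used as a floor, was then worth 0.135 to 0.227 RPKM, a limit that covers counting error only. Bap1 itself measured 28.27, 25.16 and 22.99 RPKM in the cKO libraries and 22.8, 22.72 and 24.01 RPKM in the WT libraries. Its log2 difference of 0.13 did not pass (limma adjusted p = 0.29). A sum over the whole gene may miss a loss of the floxed exons, so it does not check the labels. The labelled cell type was checked with 9 marker lists. The summed level of 18 mesenchymal stromal markers was 191 to 307 RPKM in the cKO libraries and 2689 to 2847 RPKM in the WT libraries, and 4 and 1 of them were under 1 RPKM in every library of the group. Collagens and Cxcl12 hold most of the WT sum. Of the 17 markers tested 12 were lower and 2 higher, and Prrx1, Twist1 and Nt5e did not pass. Cdh11 rose 4.64-fold and Pdgfra 1.78-fold (limma adjusted p = 0.000693 and 0.0451). The summed level of 20 renal tubule markers was 1900 to 7404 RPKM in the cKO libraries and 7.38 to 9.39 RPKM in the WT libraries. In the cKO libraries S100g, Klk1, Pax8 and Tmem213 lead that list, while its members Umod, Hnf4a, Emx1, Calb1, Avpr2 and Scnn1g were listed at 0 in all 6 libraries. Epcam and Cdh1, which define epithelium, reached at most 0.29 and 0.12 RPKM, and the leukocyte gene Ptprc at most 0.03 RPKM. In smooth muscle markers cKO replicate 3 stood apart from its group, with a sum of 2655 RPKM, while the lowest cKO library had 125 RPKM and the WT libraries had 2169 to 2438 RPKM. These marker differences accompany every comparison below, and their part in the results on FGF genes was not tested. In bulk RNA, fewer cells of a type and less RNA per cell cannot be told apart.

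Fgf7, the most abundant ligand, and 4 of the 5 members that rose by over 1 on the log2 scale are introduced by the 250 bases before their annotated start, because Bap1 is a chromatin enzyme and these starts differ in CG content. The sequences are from RefSeq on GRCm38.p6, 5′ to 3′ on the strand of the gene, with CG dinucleotides in capitals. Of the 38 members, 29 matched the promoter table, with 37 windows. Fgf17, Fgf8, Etv4, Fgf20, Spry4, Fgf15, Fgf1, Fgf16 and Fgfr1 had no match. The printed windows of Fgfrl1, Spred3 and Fgf13 lie inside the gene coordinates given below, which come from a different annotation. The CG counts of these genes thus hold for the RefSeq starts only.
Fgfrl1 (chr5:108693979-108694228, plus strand): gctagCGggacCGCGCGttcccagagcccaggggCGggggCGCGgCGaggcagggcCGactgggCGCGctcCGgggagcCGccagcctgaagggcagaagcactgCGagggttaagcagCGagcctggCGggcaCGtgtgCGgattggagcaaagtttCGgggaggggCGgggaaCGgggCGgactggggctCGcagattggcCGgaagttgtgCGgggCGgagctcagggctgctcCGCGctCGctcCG
Fgf18 (chr11:33147401-33147650, minus strand): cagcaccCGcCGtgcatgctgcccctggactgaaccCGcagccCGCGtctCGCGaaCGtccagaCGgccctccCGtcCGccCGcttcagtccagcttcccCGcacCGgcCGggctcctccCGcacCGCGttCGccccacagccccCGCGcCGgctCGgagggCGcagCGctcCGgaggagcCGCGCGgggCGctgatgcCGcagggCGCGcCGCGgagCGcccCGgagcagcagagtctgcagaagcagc
Spred3 (chr7:29168648-29168897, minus strand): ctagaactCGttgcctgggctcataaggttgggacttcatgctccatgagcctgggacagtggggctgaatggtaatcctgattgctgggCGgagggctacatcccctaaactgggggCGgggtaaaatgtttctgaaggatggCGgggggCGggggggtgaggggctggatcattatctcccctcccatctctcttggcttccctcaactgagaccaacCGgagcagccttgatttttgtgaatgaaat
Fgf7 (chr2:126034408-126034657, plus strand): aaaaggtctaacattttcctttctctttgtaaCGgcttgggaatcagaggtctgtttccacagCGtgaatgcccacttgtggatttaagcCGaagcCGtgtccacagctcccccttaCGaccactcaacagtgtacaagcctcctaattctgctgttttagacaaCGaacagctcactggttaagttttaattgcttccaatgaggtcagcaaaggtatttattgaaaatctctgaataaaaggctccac
Fgf13 (chrX:59567349-59567598, minus strand): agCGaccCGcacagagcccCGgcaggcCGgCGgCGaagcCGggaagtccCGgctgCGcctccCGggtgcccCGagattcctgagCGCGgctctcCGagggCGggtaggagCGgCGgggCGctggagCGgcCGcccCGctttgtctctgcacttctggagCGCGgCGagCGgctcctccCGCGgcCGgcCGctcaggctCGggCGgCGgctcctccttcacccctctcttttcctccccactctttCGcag
Fgf13 (chrX:59166089-59166338, minus strand): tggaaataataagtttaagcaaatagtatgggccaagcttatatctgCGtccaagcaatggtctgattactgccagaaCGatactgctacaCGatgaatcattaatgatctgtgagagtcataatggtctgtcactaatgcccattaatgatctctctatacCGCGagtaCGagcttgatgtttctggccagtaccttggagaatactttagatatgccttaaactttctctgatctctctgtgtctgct
The windows of Fgfrl1 and Fgf18 held 30 and 37 CG dinucleotides, more than 94.1% and 97.8% of 32851 windows of the same length held. Those of Spred3 and Fgf7 held 6 each, which is the median of all windows. Fgfr3, the fifth member that rose by over 1, has a pair of windows with 19 and 24 CG dinucleotides, not printed here. Fgf13 has 4 annotated starts with a window, and these held 2, 33, 6 and 31 CG dinucleotides from the most upstream start to the most downstream. A value summed over the gene does not say which start was used. Genes that were higher in the cKO libraries had windows both rich in CG (Fgfrl1, Fgf18) and near the median (Spred3). The CG counts are a description of these windows, and no mark on them was measured here.

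Of the 38 members, 17 reached 1 RPKM in some library, 21 did not, and 7 of these 21 were listed at 0 in all 6 libraries. Differences were tested with limma on log2(RPKM + 1) over the 12223 genes whose mean reached 1 RPKM, and 15 members passed that filter. A member passed the test with a Benjamini-Hochberg adjusted p under 0.05. Of the 15, 6 rose (Fgf18, Fgf13, Fgfr3, Fgfrl1, Spred2 and Spred3), 2 fell (Fgf7 and Spred1) and 7 did not pass. The WT means of Fgf18, Fgf13 and Fgfr3 were under 1 RPKM. These genes passed the filter through the cKO libraries and, once tested, could only come out higher. Over all genes tested, 34.7% were higher, 26.5% lower and 61.2% called in either direction, while 8 of the 15 members, or 53.3%, were called. The share among the members is thus near that of all genes. The median log2 difference of the 15 was 0.33, and that of all genes tested was 0.09. The groups did not overlap in 7 members with the cKO libraries above and 2 with the cKO libraries below, where 39.2% and 29.8% of all genes tested had no overlap in these directions, and 69% in either. Another scaling, by median of ratios, brought the median of all genes to -0.0057, so differences no larger than the main median have no sure direction. With cKO replicate 3 left out, 6 members were higher and 3 lower. Among the lower was Spry4, which passed the filter over the remaining libraries but not over all 6. It did so through the WT libraries alone and could only come out lower.

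**Figure D1:**
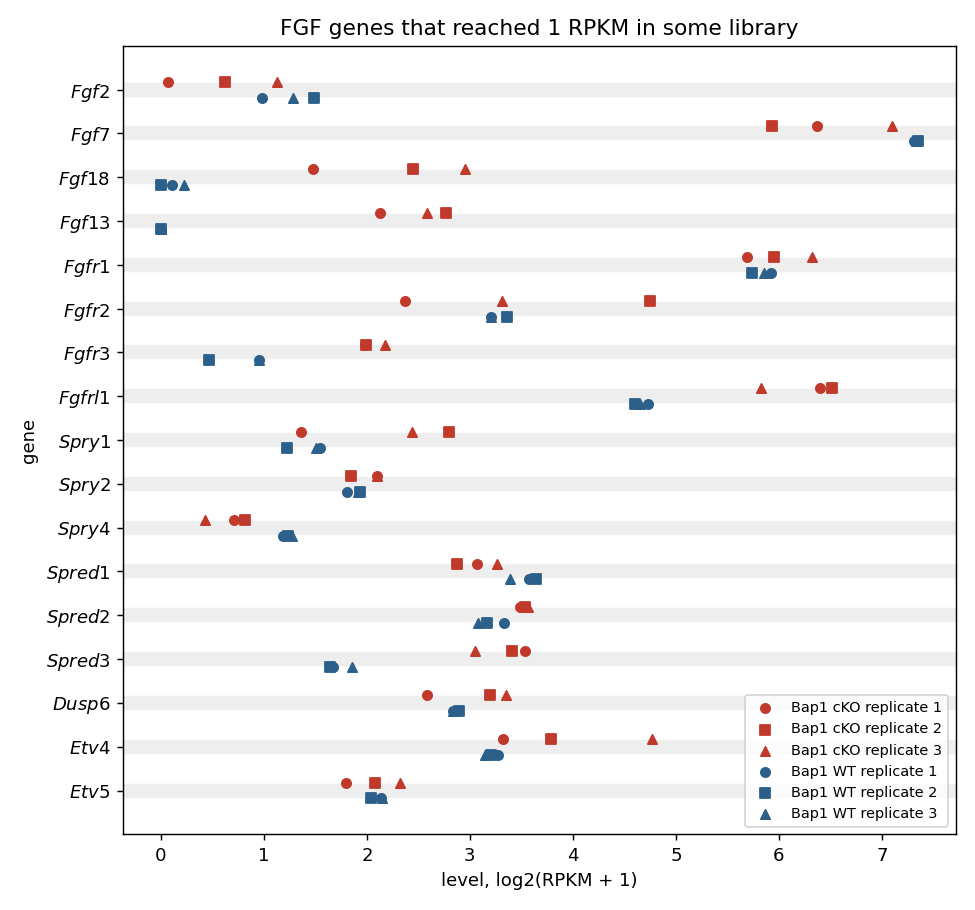
Levels of the 17 FGF genes that reached 1 RPKM in some library, as log2(RPKM + 1), with a point for each library (cKO libraries above, WT libraries below in each row; symbols mark replicates). Fgf18, Fgf13, Fgfr3, Fgfrl1 and Spred3 show cKO points to the right of all WT points, Fgf7 shows them to the left, and the spread of Fgfr2, Spry1 and Etv4 is wider among the cKO libraries than among the WT libraries.

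Among the secreted ligands 1 gene held most of the RNA. Fgf7, the keratinocyte growth factor that mesenchymal cells release and that acts on epithelia through the epithelial form of Fgfr2, measured 81.85, 60.11 and 136.09 RPKM in cKO replicates 1 to 3, against 157.4, 161.87 and 160.24 RPKM in the WT libraries. All 3 cKO libraries lay below the WT libraries, with cKO replicate 3 the closest to them, and the WT values differed little from each other. Fgf7 (chromosome 2, 126034658 to 126091185, GRCm38) fell 1.72-fold, to a mean of 92.7 ± 39.1 RPKM in the cKO libraries, against 160 ± 2.26 RPKM in the WT libraries (SD, n = 3 each). The log2 difference was -0.86 ± 0.27 (SE; limma adjusted p = 0.0302). Without cKO replicate 3 the difference was -1.18, with a limma adjusted p of 0.000403. The call was lost without WT replicate 1, 2 or 3 (log2 differences of -0.87, -0.85 and -0.86; limma adjusted p = 0.0788, 0.0848 and 0.079), without cKO replicate 1 (-0.81; 0.0848) and without cKO replicate 2 (-0.59; 0.0523). Centring each chromosome (-0.75; limma adjusted p = 0.0521) or testing with no minimum level (-0.86; limma adjusted p = 0.0594) ended it too. Over the 18 secreted ligands, the summed level was 85.7, 66.9 and 145 RPKM in cKO replicates 1 to 3 and 159, 164 and 162 RPKM in the WT libraries. Fgf7 made up 89.8 to 95.5% of that sum in the cKO libraries and 98.6 to 99.0% in the WT libraries.

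Fgf18, a ligand that signals to chondrocytes and osteoblasts, moved the other way from a low level. It measured 1.79, 4.46 and 6.73 RPKM in cKO replicates 1 to 3, against 0.08, 0 and 0.17 RPKM in the WT libraries. The WT values were all under the floor of 3 fragments per kilobase, so no fold is given, and each cKO value was above it. Fgf18 (chromosome 11, 33117430 to 33147400) rose by 2.18 ± 0.36 on the log2(RPKM + 1) scale (SE, limma adjusted p = 0.00226). The median log2 difference of the genes on chromosome 11 was 0.42, and with each chromosome centred on its median the difference of Fgf18 was 1.76 (limma adjusted p = 0.00661). Of its subfamily, Fgf17 measured 0.35, 0.23 and 0.03 RPKM in the cKO libraries and 0.04, 0.06 and 0.06 RPKM in the WT libraries, and Fgf8 was listed at 0 in 5 libraries and at 0.05 RPKM in cKO replicate 3.

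Other ligands were detected at the edge of the depth. Fgf2, a broadly expressed mitogen of stromal cells that lacks a signal peptide, measured 0.05, 0.54 and 1.18 RPKM in cKO replicates 1 to 3 and 0.97, 1.8 and 1.44 RPKM in the WT libraries, so cKO replicates 1 and 2 lay below the WT libraries and cKO replicate 3 among them. Fgf10, a mesenchymal ligand of limb and lung outgrowth, was listed at 0.65, 0.99 and 0.31 RPKM in the cKO libraries and at 0 in every WT library. Fgf16 was listed at 0.26, 0.28 and 0.45 RPKM in the cKO libraries and at 0 in every WT library. Both were under the minimum mean of 1 RPKM and so not among the 15 members tested. With a minimum mean of 0.1 RPKM, 22 members were tested, of which 8 were higher and 3 lower, where 29.1% and 22.8% of the 16715 genes tested at that minimum were higher and lower. Fgf10 and Fgf16 were then higher, with limma adjusted p-values of 0.0101 and 0.00959 and log2 differences of 0.70 and 0.41. Both reached that minimum through the cKO libraries alone, so they could only come out higher, and these p-values add no support. The Fgf16 values of cKO replicates 1 and 2 also lay just above the floor. Fgf2 did not pass, with a limma adjusted p of 0.0987. Fgf1 measured 0.25 to 0.57 RPKM in the cKO libraries and 0.1 to 0.46 RPKM in the WT libraries. Fgf9 reached at most 0.19 RPKM in any library and Fgf22 at most 0.15 RPKM.

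Several ligands of the embryo and the endocrine FGFs were at or near 0. Fgf3, Fgf4 and Fgf15, neighbours on chromosome 7 between 144838083 and 144900953, were listed at 0 in all 6 libraries, as were Fgf5 and Fgf20. Fgf6 was at most 0.02 RPKM. Fgf21, a metabolic hormone of the liver, reached 0.17 RPKM and Fgf23, the phosphate hormone of osteocytes, 0.09 RPKM. Apart from Fgf21 in cKO replicate 3 these values lie under the floor, so a difference between the groups was not detectable at this depth.

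The FGF homologous factors, which stay inside the cell and bind voltage-gated sodium channels in place of receptors, differed from each other. Fgf13 measured 3.37, 5.8 and 4.98 RPKM in cKO replicates 1 to 3 and was listed at 0 in every WT library. The cKO values lay close together, and cKO replicate 3 lay between replicates 1 and 2. Fgf13 (chromosome X, 59062145 to 59568071) rose by 2.49 ± 0.19 on the log2(RPKM + 1) scale (SE, limma adjusted p = 9.34e-05), and 6.39% of all genes tested had a larger absolute difference. Fgf11 measured 0.17, 0.09 and 0.12 RPKM in the cKO libraries and 0.14, 0.13 and 0.14 RPKM in the WT libraries, all under the floor of their libraries. Fgf12 reached 0.08 RPKM and Fgf14 was listed at 0 throughout. Fgf13 was thus the member of its subfamily that both reached 1 RPKM and passed the test, which it entered through the cKO libraries alone.

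The receptors fell into a pair that did not pass and a pair that rose. Fgfr1, the main FGF receptor of mesenchyme, measured 50.56, 60.76 and 79.08 RPKM in cKO replicates 1 to 3 and 59.68, 52.44 and 56.93 RPKM in the WT libraries. The groups overlapped, the log2 difference was 0.15 ± 0.16 (SE, limma adjusted p = 0.46), and it was -0.02 without cKO replicate 3. Fgfr1 made up 67.8 to 87.7% of the summed level of Fgfr1 to Fgfr4 in the cKO libraries and 84.4 to 86.7% in the WT libraries. Fgfr2 divided the cKO libraries, with 4.16, 25.91 and 8.92 RPKM in replicates 1 to 3, against 8.25, 9.29 and 8.22 RPKM in the WT libraries. One cKO library lay below the WT libraries, one far above and one among them, and the difference did not pass (0.22 ± 0.55 on the log2 scale, SE; limma adjusted p = 0.753). Its sign turned to -0.42 without cKO replicate 2. Epithelia and mesenchyme use different splice forms of Fgfr2, which a value per gene does not separate. Esrp2, which with Esrp1 promotes the epithelial form, measured 3.15, 4.29 and 1.21 RPKM in the cKO libraries and 0.06, 0.07 and 0 RPKM in the WT libraries, and Esrp1 reached at most 0.43 RPKM.

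Fgfr3, the receptor that restrains growth plate chondrocytes, measured 2.95, 2.98 and 3.52 RPKM in the cKO libraries and 0.93, 0.38 and 0.94 RPKM in the WT libraries. Every cKO library lay above every WT library. Fgfr3 rose 4.2-fold, by 1.26 ± 0.18 on the log2(RPKM + 1) scale (SE, limma adjusted p = 0.0012). Fgfrl1, a receptor without the intracellular kinase that binds FGFs and heparin, measured 83.13, 90.63 and 55.88 RPKM in cKO replicates 1 to 3 and 25.57, 23.26 and 24.14 RPKM in the WT libraries. The groups did not overlap, and cKO replicate 3 was the lowest of its group. Fgfrl1 (chromosome 5, 108692382 to 108706924) rose 3.15-fold to 76.5 ± 18.3 RPKM in the cKO libraries, against 24.3 ± 1.17 RPKM in the WT libraries (SD, n = 3 each). Its log2 difference was 1.59 ± 0.18 (SE, limma adjusted p = 0.000422), and 1.79 without cKO replicate 3. On chromosome 5, which holds both genes, the median log2 difference was 0.19, and both calls were kept with each chromosome centred (1.07 for Fgfr3 and 1.40 for Fgfrl1 on the log2 scale). Per length, Fgfrl1 stood above Fgfr1 in cKO replicates 1 and 2 and below it in cKO replicate 3 and in every WT library. Fgfr4 was listed at 0.01 RPKM in cKO replicate 3 and at 0 elsewhere.

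**Figure D2:**
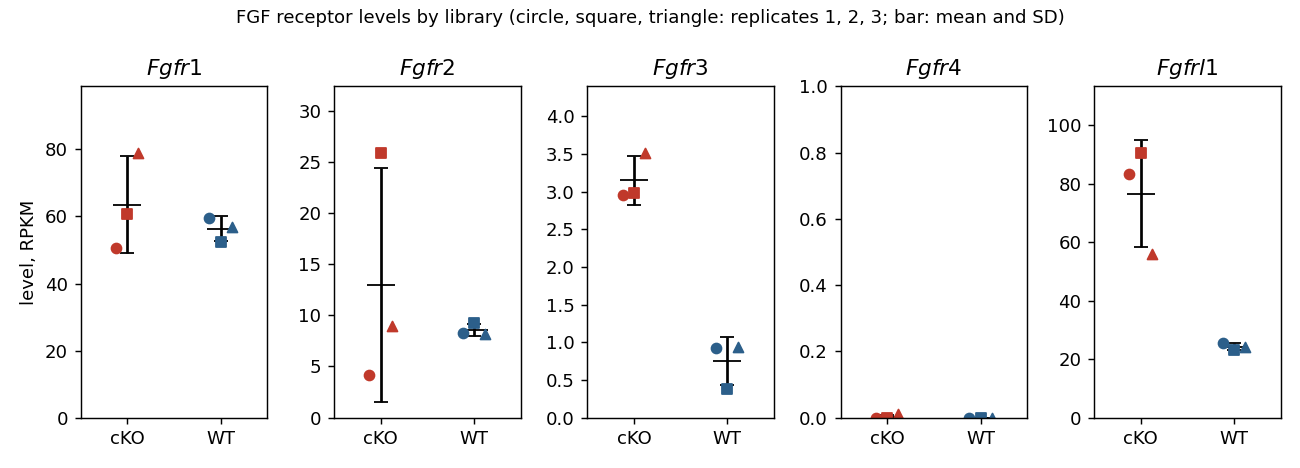
RPKM of the 5 FGF receptors in each library, with the cKO libraries left of the WT libraries in each panel and bars for mean and SD (n = 3 each); each panel has its own vertical axis from 0. Fgfr3 and Fgfrl1 show no overlap between groups, Fgfr2 spreads from 4.16 to 25.91 RPKM among the cKO libraries, and Fgfr4 lies at 0 or 0.01 RPKM.

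Of the klothos, the co-receptors of the endocrine FGFs, Kl was listed at 0 in all 6 libraries and Klb reached at most 0.03 RPKM. Kl is known as a gene of the distal renal tubule, and it was at 0 in the cKO libraries that held S100g and Klk1 at high levels.

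Of the 9 feedback genes 8 were tested, of which 2 rose, 1 fell and 5 did not pass. That is 37.5% called, where 61.2% of all genes tested were called. The 3 Spred genes, which encode inhibitors of the step from Ras to Raf, took different directions. Spred3 measured 10.56, 9.62 and 7.28 RPKM in cKO replicates 1 to 3 and 2.19, 2.13 and 2.61 RPKM in the WT libraries, with no overlap and cKO replicate 3 the lowest of its group. Spred3 (chromosome 7, 29158829 to 29170411) rose 3.96-fold, by 1.61 ± 0.16 on the log2 scale (SE, limma adjusted p = 0.000225). Chromosome 7 had the highest median log2 difference of all chromosomes, 0.64, and with each chromosome centred Spred3 was higher by 0.96 (limma adjusted p = 0.00256).

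Spred1 measured 7.38, 6.36 and 8.62 RPKM in the cKO libraries and 10.93, 11.49 and 9.45 RPKM in the WT libraries. It fell 1.43-fold, with a log2 difference of -0.46 ± 0.13 (SE, limma adjusted p = 0.0222). The call was lost without cKO replicate 1 or 2 (log2 differences of -0.46 and -0.37; limma adjusted p = 0.0529 and 0.0554), without WT replicate 1 or 2 (-0.44 and -0.41; 0.077 and 0.0809) and with each chromosome centred (-0.36; 0.0593). Spred2 measured 10.21, 10.56 and 10.8 RPKM in the cKO libraries and 9.05, 7.98 and 7.45 RPKM in the WT libraries. It rose 1.29-fold, with a log2 difference of 0.33 ± 0.10 (SE, limma adjusted p = 0.0263). That is less than the median of its chromosome 11, and with each chromosome centred its difference was -0.08. The call of Spred2 was also lost without cKO replicate 2 or WT replicate 2 or 3 (0.33, 0.32 and 0.28; limma adjusted p = 0.0576, 0.0802 and 0.102) and with TMM, median-of-ratios or quantile scaling (0.24, 0.23 and 0.24; 0.0878, 0.0923 and 0.0864). The replicate block ended both calls as well, and over all alternatives Spred1 lost its call in 6 and Spred2 in 8. The groups of both genes did not overlap, but their differences are small. Their calls did not hold with any of several libraries left out, though the differences changed little.

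The Sprouty proteins block receptor tyrosine kinase signals upstream of ERK. Spry1 measured 1.57, 5.93 and 4.41 RPKM in cKO replicates 1 to 3 and 1.91, 1.33 and 1.84 RPKM in the WT libraries, so cKO replicates 2 and 3 lay above the WT libraries and cKO replicate 1 among them. Spry2 measured 3.27, 2.59 and 3.27 RPKM in the cKO libraries and 2.51, 2.83 and 2.77 RPKM in the WT libraries. Neither passed (limma adjusted p = 0.105 for Spry1 and 0.44 for Spry2). Spry4 measured 0.63, 0.76 and 0.35 RPKM in the cKO libraries and 1.27, 1.36 and 1.41 RPKM in the WT libraries. All 3 cKO values lay below the WT values, but its mean over all libraries was under 1 RPKM. Without cKO replicate 3 its mean passed that minimum through the WT libraries alone, so it could only come out lower. Its difference was then -0.47 (log2, limma adjusted p = 0.0313), and that p-value adds no support. With a minimum mean of 0.1 RPKM its difference was -0.58 (log2) with a limma adjusted p of 0.0109.

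Dusp6, the cytoplasmic phosphatase that removes phosphate from ERK, and the ETS factors Etv4 and Etv5 are often read as outputs of FGF signals. Dusp6 measured 4.98, 8.18 and 9.23 RPKM in cKO replicates 1 to 3 and 6.14, 6.42 and 6.15 RPKM in the WT libraries. Etv4 measured 9.01, 12.78 and 26.31 RPKM in the cKO libraries and 8.68, 8.23 and 7.85 RPKM in the WT libraries. Etv5 measured 2.48, 3.23 and 4.01 RPKM in the cKO libraries and 3.41, 3.1 and 3.44 RPKM in the WT libraries. In all 3 genes cKO replicate 1 was the lowest and cKO replicate 3 the highest of the cKO libraries, and only Etv4 had no overlap between the groups. None of the 3 passed (log2 differences of 0.19 ± 0.21, 0.75 ± 0.34 and -0.04 ± 0.16, SE; limma adjusted p = 0.454, 0.0997 and 0.841). Without cKO replicate 1, Dusp6, Etv4 and Spry1 were higher (log2 differences of 0.42, 1.07 and 1.19; limma adjusted p = 0.02, 0.0253 and 0.00382), and 9 members in all were higher. Over the 8 tested feedback genes, cKO replicate 3 stood 0.33 above the mean of cKO replicates 1 and 2 (median log2 difference), against 0 over all genes tested.

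**Figure D3:**
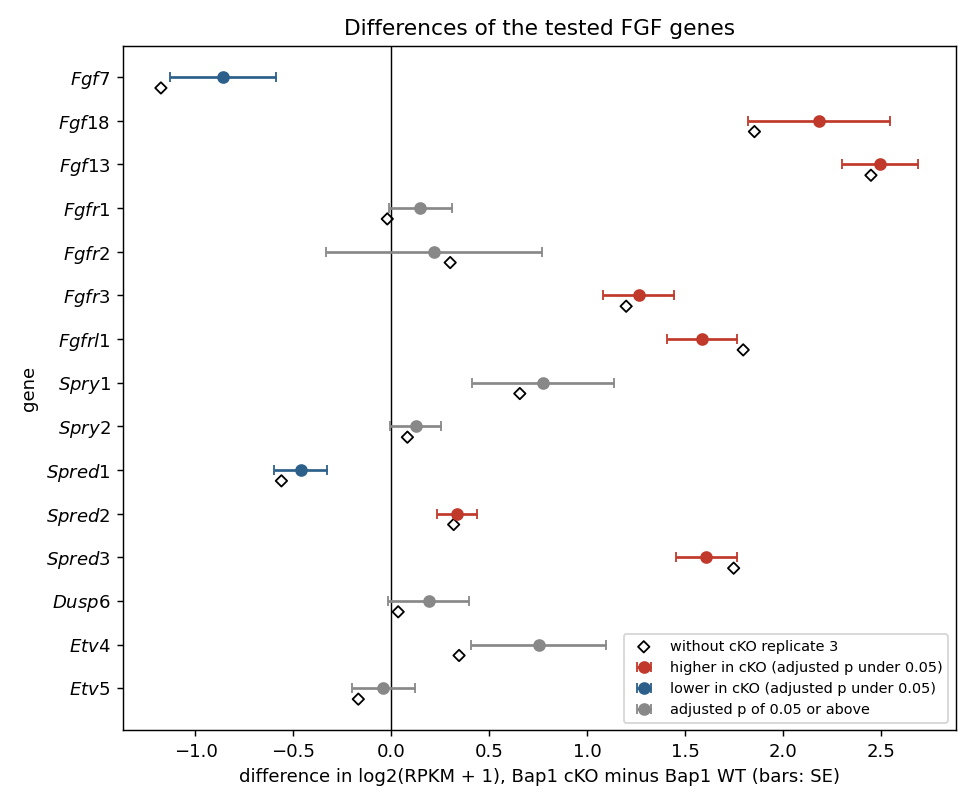
Differences in log2(RPKM + 1) between cKO and WT libraries for the 15 tested FGF genes, with SE bars from limma (n = 3 per group) and open diamonds for the same difference without cKO replicate 3. Fgf13, Fgf18, Spred3, Fgfrl1 and Fgfr3 lie above 1 with and without that library, Fgf7 and Spred1 lie below 0, and grey points did not pass the test.

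Other genes of the pathway were taken from 4 lists with 99 genes, of which 97 matched by symbol (Anos1 and Ankh did not) and 79 were tested. Of these 29 rose and 19 fell, or 60.8% in all, which is near the 61.2% of all genes tested. Of the kinases and adaptors of the signal relay, 7 of 23 were higher and 2 lower, or 39.1% called, with a median log2 difference of 0.11, close to that of all genes. Frs2, the adaptor bound to the receptor, fell 1.53-fold to 14.7 ± 1.18 RPKM in the cKO libraries, against 22.6 ± 0.903 RPKM in the WT libraries (SD, n = 3 each; limma adjusted p = 0.00161). Plcg1, the phospholipase that binds active receptors, fell 1.84-fold (limma adjusted p = 0.000508). Sos2, a Ras exchange factor, and Pik3r1, a regulatory subunit of PI3 kinase, rose 2.14-fold and 1.91-fold (limma adjusted p = 0.00091 and 0.00099). Sos2 lies on chromosome 12, whose genes had a median log2 difference of 0.58.

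Genes of heparan sulphate and of other proteins that bind FGFs or their receptors went both ways, with 7 of 24 tested higher and 9 lower, and a median log2 difference of -0.38. The shares of 29.2% and 37.5% stand beside 34.7% and 26.5% of all genes tested. Gpc1, a glypican that carries heparan sulphate, measured 9.18, 6.55 and 12.19 RPKM in the cKO libraries and 170.88, 151.31 and 179.93 RPKM in the WT libraries. It fell 18-fold (limma adjusted p = 1.67e-05). Sdc3, a syndecan, measured 1.36, 0.74 and 3.97 RPKM in the cKO libraries and 45.84, 41.67 and 50.39 RPKM in the WT libraries, a fall of 22.7-fold (limma adjusted p = 0.00016), and of 43.8-fold without cKO replicate 3. Flrt1 and Flrt2, membrane proteins of a family that binds FGF receptors, rose to 5.04 ± 1.79 and 9.27 ± 2.36 RPKM in the cKO libraries, against 0.00333 ± 0.00577 and 0.12 ± 0.0529 RPKM in the WT libraries (SD, n = 3 each; limma adjusted p = 0.000141 and 3.84e-05). Both passed the minimum mean of 1 RPKM through the cKO libraries, so they could only come out higher, also in the count of this list. Of the other proteoglycans of the list, Sdc1, Sdc2 and Hspg2 were also lower (log2 differences of -0.71, -1.03 and -1.03; limma adjusted p = 0.000234, 0.0038 and 0.0114). The proteoglycan Agrn rose by 0.41 on the log2 scale (limma adjusted p = 0.0271), Sdc4, Gpc4 and Gpc6 did not pass, and Flrt3 was under the minimum. Gpc4 and Gpc6, but not Sdc4, were lower without cKO replicate 3 (log2 differences of -0.72 and -0.70; limma adjusted p = 0.0136 and 0.00278). The number of genes higher in this list was 4 without WT replicate 1, 2 or 3 and with TMM, median-of-ratios or quantile scaling. Without cKO replicate 3, 13 were lower.

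Among other genes that ERK induces or that feed back on it, 10 of 24 tested rose and 7 fell, with a median log2 difference of 0.57. The shares, 41.7% and 29.2%, are near the 34.7% and 26.5% of all genes tested. Of the genes counted, Dusp2, Spry3 and Il17rd had WT means under the minimum of 1 RPKM and could only come out higher. Spata13 had a cKO mean under it and could only come out lower. Egr1, an immediate early factor, rose 9.06-fold to 106 ± 23.6 RPKM in the cKO libraries, against 11.7 ± 3.28 RPKM in the WT libraries (SD, n = 3 each; limma adjusted p = 8.88e-05). Dusp2, a nuclear phosphatase of ERK, was at 65.17, 132.14 and 83.18 RPKM in the cKO libraries and listed at 0 in every WT library (limma adjusted p = 5.64e-06). Its relative Dusp4 fell 8.83-fold, to 1.1 ± 0.44 RPKM in the cKO libraries, against 9.74 ± 1.13 RPKM in the WT libraries (limma adjusted p = 9.57e-05). Fosl1, an AP-1 factor, measured 1.79, 0.66 and 3.61 RPKM in cKO replicates 1 to 3 and 65.3, 54.3 and 64.38 RPKM in the WT libraries. It fell 30.4-fold (limma adjusted p = 9.23e-05), and 50.1-fold without cKO replicate 3. The phosphatases Dusp2 and Dusp4 thus moved in opposite directions, as did the early factors Egr1 and Fosl1.

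Genes of the endocrine FGF axis, which handle phosphate and vitamin D, were tested in 8 of 16 cases, with 5 higher and 1 lower and a median log2 difference of 0.64. With 8 genes tested the shares were 62.5% and 12.5%, where 34.7% and 26.5% of all genes tested were higher and lower. Cyp27b1 and Galnt3, counted among the higher, had WT means under the minimum of 1 RPKM. They passed that filter through the cKO libraries and could only come out higher. Cyp27b1, the enzyme that makes active vitamin D and that Fgf23 represses in the kidney, measured 102.59, 120.51 and 16.1 RPKM in cKO replicates 1 to 3 and 0.06, 0.2 and 0.12 RPKM in the WT libraries (limma adjusted p = 0.000639). All cKO values were far above the WT values, with cKO replicate 3 the lowest. Galnt3, which glycosylates Fgf23, rose to 4.62, 2.31 and 1.93 RPKM in the cKO libraries, against 0.02, 0.04 and 0.11 RPKM in the WT libraries (limma adjusted p = 0.00114). Slc9a3r1, a scaffold of phosphate transporters, measured 56.14, 22.31 and 21.92 RPKM in cKO replicates 1 to 3 and 7.34, 6.87 and 6.56 RPKM in the WT libraries. It rose 4.83-fold (limma adjusted p = 0.0029), and 3.19-fold without cKO replicate 1, the highest of its group. Enpp1, which makes the mineralization inhibitor pyrophosphate, fell 7.16-fold (limma adjusted p = 6.74e-05). The number higher in this list was 3 without cKO replicate 1 or WT replicate 2, and 2 genes were lower without cKO replicate 2 or 3. The renal tubule markers given above moved with these genes, and their part was not tested.

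**Figure D4:**
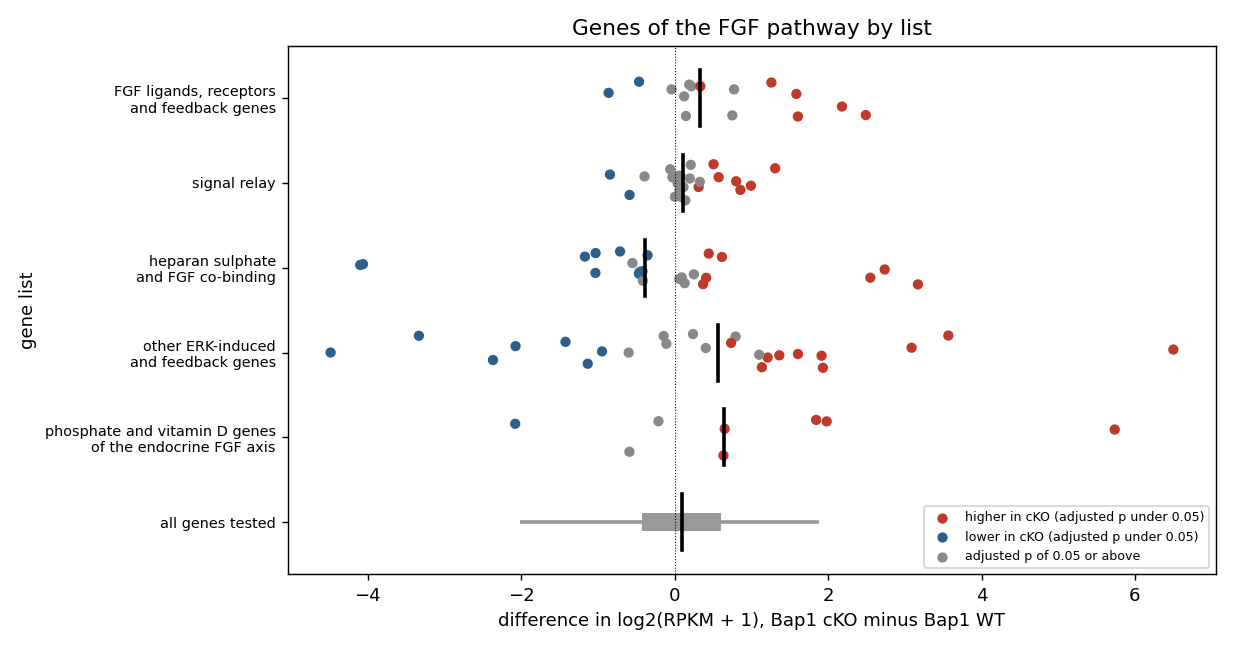
Differences in log2(RPKM + 1) between cKO and WT libraries for the tested genes of the FGF list and of 4 other pathway lists (points, red for higher, blue for lower and grey for not passed, black bars for medians), above all genes tested (black bar for the median of 0.09, box from the 25th to the 75th percentile at -0.43 and 0.61, line from the 5th to the 95th at -2.01 and 1.88). The heparan sulphate and ERK-induced lists hold genes beyond both ends of the line, such as Gpc1 and Flrt2, or Fosl1 and Dusp2.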

How the data were processed

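The authors deposited 1 table of RPKM values with 2 decimals, for 55471 Ensembl identifiers in 6 columns, 1 for each library. Per the labels, RNA was extracted with TRIzol and sequenced as paired reads from stranded libraries. RSEM 1.3.1, STAR 2.7.1a, cutadapt 2.8 and the build GRCm38 are listed in the submitters' processing notes, and the annotation is not given in the sources used here. Symbols and gene coordinates are from GENCODE M21, which matched 55230 identifiers. The estimate of depth rested on genes with a single transcript between 800 and 3500 bp (minus 150 bp), where 82.8 to 93.3% of low values came to a whole fragment number within 0.2 (40% by chance).

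The test was that of limma 3.58.1 (R 4.3.3) on log2(RPKM + 1), 2-sided, with genotype as the only term, a variance prior that follows the mean and Benjamini-Hochberg adjustment over all genes tested. Folds are ratios of mean RPKM, given where each library of the lower group reached its floor of 3 fragments per kilobase, and the log scale understates changes of low genes. With 3 libraries a group the smallest exact permutation p is 0.1, so calls rest on the spread that limma pools over genes. All 38 members are named, with the 4 tested genes of smallest p in each pathway list. The members and lists were chosen with earlier results of these data known. Alternatives were pseudocounts of 0.1 and 0.5, minimum means of 0.1 and 5 RPKM or none, 4 scalings, other variance priors, sample weights, a replicate block, chromosome centring and leaving out each library. The fit was tested on simulated data with 200 changed genes and the same spread in both groups. In the real data 61.2% of genes were called and the cKO libraries differed more from each other than the WT libraries did. The simulation does not cover that setting. Tables and plots were made with matplotlib 3.10.9, pandas 2.3.3 and numpy 2.4.6 under Python 3.11.15. The other marker lists had these summed levels in cKO and WT libraries: osteoblast 13.4 to 35.5 and 367 to 430 RPKM, adipocyte 2.77 to 6.44 and 483 to 502, chondrocyte 126 to 251 and 77.5 to 85.3, general epithelium 8.59 to 13.2 and 15.6 to 17.1, haematopoietic 9 to 15.1 and 3.4 to 4.76, and endothelial 0.19 to 5.16 and 0.16 to 0.45 RPKM.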

Additional observations from a re-analysis of the deposited data

How the results depend on the processing

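Fgf13, Fgf18, Fgfr3, Fgfrl1 and Spred3 kept their direction and call under every alternative in which they were tested, as did the 16 named genes of the pathway lists. Those 16 were picked as the 4 tested genes of smallest p in each list of these same data, so their kept calls add no support. With the minimum mean of 1 RPKM, genes whose WT mean lay under it could only come out higher. Among them were Fgf13, Fgf18 and Fgfr3, and of the 16, Flrt1, Flrt2, Dusp2, Cyp27b1 and Galnt3. Of the 294 alternative values of the 15 tested members, 263 kept direction and call, 21 lost the call (of Fgf7, Spred1 and Spred2), 3 gained one and 7 changed sign. The sign changed for Fgfr1 without cKO replicate 3 (log2 difference of -0.0214, and 0.296 without cKO replicate 1), for Fgfr2 without cKO replicate 2 (-0.42, and 0.771 without cKO replicate 1) and for Etv5 without cKO replicate 1 (0.0937, and -0.169 without cKO replicate 3). With each chromosome centred it changed for Fgfr2 (-0.43), Spred2 (-0.0839), Dusp6 (-0.0024) and Etv5 (0.17). Leaving out 1 library gave 5 to 9 members higher and 0 to 3 lower, 3504 to 4483 genes higher and 2626 to 3623 lower, and 24 to 28 pathway genes higher and 15 to 25 lower. By limma 0 members were lower without WT replicate 1 or 2 (2 and 1 at an unadjusted p under 0.05) and with chromosome centring (2 unadjusted). Without cKO replicate 1 or 2 or WT replicate 3, 1 was lower. The minimum was applied anew to the libraries kept, so members outside the 15 could enter, as Spry4 did without cKO replicate 3. An absolute log2 difference of at least 1 left 1632 genes higher and 1499 lower, 16 and 12 pathway genes, and 5 members higher and 0 lower. A minimum mean of 5 RPKM left 3 members higher, since fewer were tested.

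A pairing of the samples by replicate number was not seen. Deviations from the group means correlated across genes with r of -0.0166, 0.0505 and -0.0189 for replicates 1, 2 and 3. The value for replicates 2 was the highest of all pairs, followed by cKO replicate 3 with WT replicate 1 (0.049). cKO replicate 1 correlated best with WT replicate 3 (0.0382). Correlations this small, from 3 libraries a group, cannot exclude a pairing. The replicate block left 1 member lower and 5 higher, and 3811 genes higher and 2938 lower. The calls it ended were those of Spred1 and Spred2. Where no other reason is given, the cause of a change was not tested. Of the 23 members under the minimum mean, 15 were under the floor in all 6 libraries, so depth limits them. The remaining 8 were left out by the minimum.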
